A study of Homo sapiens and Mus musculus with 24 samples.

Results

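The mRNAs of the mitochondrial ribosomal proteins were followed through UV irradiation in 4 cell types. They were chosen by name, as the protein-coding genes whose symbol, mapped from the Ensembl identifier through GENCODE, begins with MRPL or MRPS and a digit. The rule found 78 genes among the 58381 genes of the human files and 78 among the 53715 genes of the mouse files, 156 in all. The same 78 symbols were found in both species, 49 named for the large subunit (MRPL) and 29 for the small subunit (MRPS). Every one of them passed the expression filter in every cell type, which asked for 0.5 CPM or more (counts scaled to the library total) on average without UV.

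Mitochondria keep a ribosome of their own, which makes the membrane proteins of the respiratory chain that are encoded in mitochondrial DNA. Its RNAs come from mitochondrial DNA, but its proteins are encoded in the nucleus, translated by cytosolic ribosomes and imported. Part of these proteins descend from ribosomal proteins of the bacterial ancestor and others were added during the evolution of mitochondria. The mRNAs studied here are therefore ordinary nuclear, polyadenylated mRNAs that are translated in the cytosol, in part near the mitochondrial surface.

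UPA-seq compares RNA from UV-irradiated cells with RNA from nonirradiated cells after extraction with an acid phenol reagent. UV light joins RNA covalently to proteins that touch it. RNA that carries crosslinked protein leaves the aqueous phase, and bonds left on RNA that stays there can also hinder reverse transcription, so that an mRNA can lose reads after UV in either way. The measurement is relative: a log2 fold change above 0 means that the mRNA was recovered better after UV than the bulk of genes, and not that the cells made more of it. Uridine is the base that crosslinks most readily under short-wave UV.

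The 4 cell types were HepG2, a line from a human hepatocellular carcinoma, HEK293, a line from human embryonic kidney, Neuro2a, a mouse neuroblastoma line, and HippCulture, primary hippocampal cells cultured from E16.5 mouse embryos. Each had 3 nonirradiated and 3 UV-irradiated samples, 24 in all, with no other treatment named. The methods describe C57/BL6NCr mice and a cytosine arabinoside step against glia for the hippocampal cultures, and name the kidney line HEK293T. Cells of all groups were lysed in TRIzol, heated before the addition of chloroform, and depleted of ribosomal RNA. The paper calls its replicates biological, and the labels do not say whether they were separate cultures, so that the p-values measure the spread between these samples. The sequencer model and the version of the counting program also differed between HepG2 and the other cell types.

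Total counts on genes ranged from 36573473 to 53511592 in HepG2, and from 6910907 to 11188033 in the other cell types. Counts of single mitochondrial ribosomal protein genes in a sample ran from 121 to 5656 (HepG2) and 129 to 3488 (HEK293) in the human lines, and from 49 to 949 (Neuro2a) and 25 to 673 (HippCulture) in the mouse cells. Without UV, each list of defining markers summed higher in its own cell type than in the other of that species. The lists were not all confined to their cell type. HEK293 markers summed to 407.2 to 658.4 CPM in nonirradiated HEK293 and to 57.7 to 63.1 CPM in nonirradiated HepG2. Of 6 neuroblastoma markers, 5 reached 0.5 CPM in Neuro2a and 1 in HippCulture. Of 8 neuronal markers, 8 did so in HippCulture and 5 in Neuro2a. Hepatocyte markers summed to 50531 to 56187 CPM in nonirradiated HepG2, and neuronal markers to 980.9 to 1111 CPM in nonirradiated HippCulture. The 4 astrocyte markers were all present in HippCulture as well, at a sum of 570.2 to 665.5 CPM without and 471.1 to 601.9 CPM with UV. The hippocampal values are therefore those of a mixed culture, in which fewer cells of a type and less RNA per cell cannot be told apart.

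Nearly all mitochondrial ribosomal protein mRNAs were recovered better after UV than the bulk of genes, in every cell type. In HepG2, 76 of the 78 rose and 1 fell by edgeR's quasi-likelihood test (adjusted p under 0.05), where 38.1% of all genes tested rose and 40.7% fell. In HEK293, 67 rose and 2 fell (background 24.2% and 26.4%). In Neuro2a, 76 rose and 0 fell (background 28.9% and 33%), with 0 fallen by DESeq2 too and 0 at an unadjusted p under 0.05. In HippCulture, 69 rose and 2 fell (background 26.1% and 25.9%). Among protein-coding genes alone, 45.9%, 27.9%, 33.3% and 30.9% rose and 34.2%, 25.8%, 31.5% and 24.9% fell, in the same order. By this count 60 of the 78 genes rose in all 4 cell types, 12 in exactly 3 and the other 6 in exactly 2.

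The median log2 fold change (UV over nonirradiated) of the 78 mRNAs was 1.71 in HepG2, with a range from −0.37 to 2.69. HEK293 followed with 1.38 (−1.11 to 2.23). The mouse cells had medians of 1.56 (Neuro2a, 0 to 2.26) and 1.08 (HippCulture, −0.35 to 1.57). All genes tested had medians of −0.08, −0.08, −0.14 and −0.04 in the same order, and protein-coding genes had medians of 0.17, 0.01, −0.03 and 0.05. The normalised counts did not overlap between the groups for most of these mRNAs. In the human lines every irradiated sample lay above every nonirradiated sample for 76 mRNAs (HepG2) and 66 mRNAs (HEK293), and in the mouse cells for 77 (Neuro2a) and 70 (HippCulture), against 37.8%, 27%, 29.3% and 28.4% of all genes tested.

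**Figure D1:**
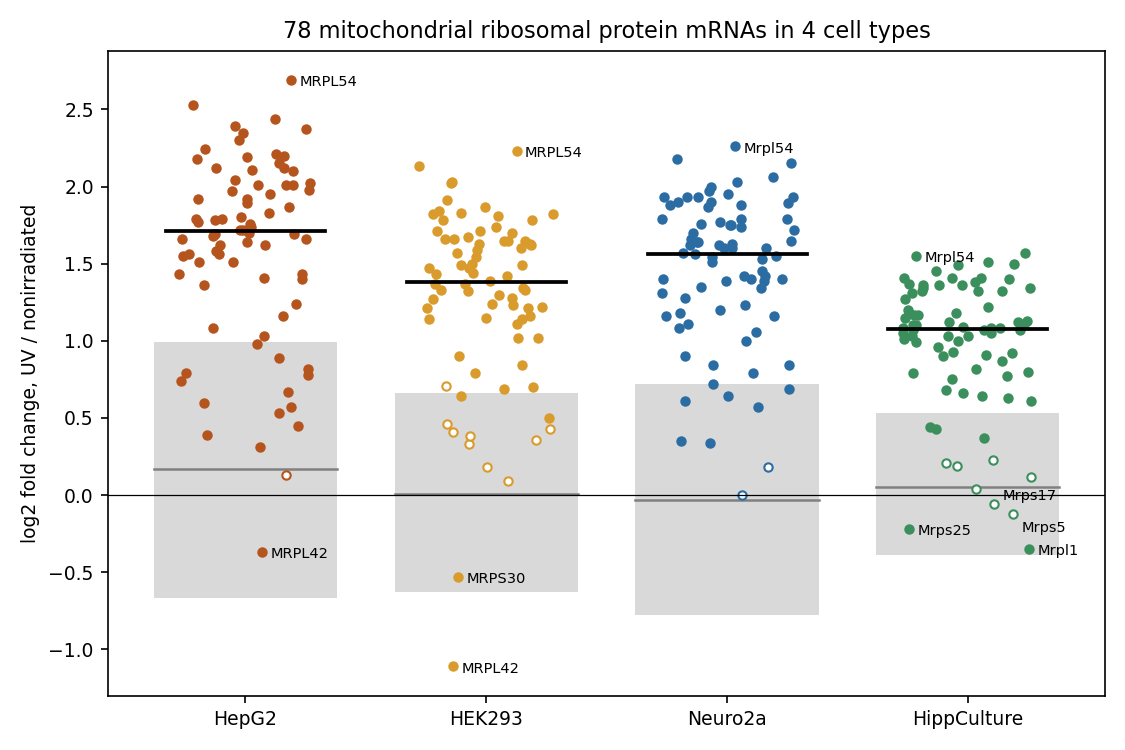
Log2 fold change (UV over nonirradiated) of the 78 mitochondrial ribosomal protein mRNAs in each of 4 cell types, 1 point per mRNA. Filled points passed the test at an adjusted p under 0.05, the black line is the median of the 78, and the grey line and band are the median and quartiles of protein-coding genes; the medians of the 78 lie at 1.71, 1.38, 1.56 and 1.08, and only a few points are at or below 0.

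The size of the rise depends on what the samples are scaled to. The scaling above (TMM, trimmed mean of M values) centres the bulk of genes near 0. With library sizes alone, which make no allowance for a shift in composition, the median of all genes moved to −1.38 and −0.84 in the human lines (HepG2 first) and to −1.32 and −0.59 in the mouse cells (Neuro2a first). On that scale 47 mitochondrial ribosomal protein mRNAs rose and 15 fell in HepG2, and 53 rose and 5 fell in HEK293. For the mouse cells 46 rose and 12 fell (Neuro2a), and 50 rose and 5 fell (HippCulture). Of all genes tested 8.62%, 7.61%, 6.07% and 7.14% rose on it and 78.7%, 54.6%, 73.8% and 49.5% fell, in the order of the cell types above. Their medians stayed above 0, at 0.4, 0.6, 0.37 and 0.53.

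Taken as a share of the reads, the 78 mRNAs gained among protein-coding counts in every cell type. They held 0.351% ± 0.0330 (SD, n = 3) of the protein-coding counts in nonirradiated HepG2 and 0.594% ± 0.00600 after UV. HEK293 went from 0.515% ± 0.0549 to 0.858% ± 0.149, Neuro2a from 0.368% ± 0.00577 to 0.603% ± 0.0364, and HippCulture from 0.213% ± 0.00252 to 0.352% ± 0.0190. The groups did not overlap in any cell type, which gives the smallest p that the exact permutation test of 3 against 3 allows, 0.1. As a share of all counts on genes the gain was smaller, from 0.271% ± 0.0348 to 0.322% ± 0.00231 in HepG2 and from 0.158% ± 0.00961 to 0.206% ± 0.0253 in HippCulture (SD, n = 3).

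The mRNAs picked here from the ends of the HepG2 range differ in the uridine content of their coding regions. The opening of the coding region, bases 1 to 90, is shown for both mRNAs that rose most in HepG2, for both human mRNAs that fell or did not pass the test there, and for the mouse counterpart of the first of these. Sequences are those of the GENCODE transcript with the longest coding region, 5′ to 3′, with T (uridine in the RNA) in capitals.
MRPL54: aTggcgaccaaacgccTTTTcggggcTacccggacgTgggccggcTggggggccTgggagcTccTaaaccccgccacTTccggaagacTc
MRPL41: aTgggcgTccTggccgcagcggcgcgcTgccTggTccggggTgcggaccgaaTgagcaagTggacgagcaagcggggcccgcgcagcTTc
MRPL42: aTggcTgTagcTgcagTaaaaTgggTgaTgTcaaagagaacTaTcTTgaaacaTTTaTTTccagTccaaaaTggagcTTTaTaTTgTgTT
MRPS30: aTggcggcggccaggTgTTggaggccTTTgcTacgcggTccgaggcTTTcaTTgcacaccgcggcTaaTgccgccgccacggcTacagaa
Mrpl42: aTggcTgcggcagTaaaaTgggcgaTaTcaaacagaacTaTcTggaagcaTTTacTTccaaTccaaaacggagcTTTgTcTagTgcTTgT

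MRPL54 (hg38 chromosome 19, 3762664 to 3768575, plus strand) has 14 uridines in this stretch, and MRPL41 (chromosome 9, 137551199 to 137552555, plus strand) has 11. MRPL42 (chromosome 12, 93467488 to 93516213, plus strand) has 30, MRPS30 (chromosome 5, 44808925 to 44820428, plus strand) has 17, and mouse Mrpl42 (mm10 chromosome 10, 95480805 to 95501940, minus strand) has 24. Over the whole coding region the uridine share is 15.1% in MRPL54 (417 bases), 15.2% in MRPL41 (414 bases), 27.6% in MRPL42 (468 bases) and 23.6% in MRPS30 (1320 bases). Mouse Mrpl42 has 19.8% over 429 bases, less than its human counterpart. The exons counted for human MRPL42 span 16393 bases, of which its coding region is a small part. These mRNAs were picked by their fold changes, and MRPL39, with 27.6% as well, rose by 1.51 in HepG2.

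MRPL54, a protein of the large subunit with no bacterial homologue, was among the 4 mRNAs with the largest rise in every cell type. Its normalised counts were 183.2, 274.5 and 241.2 in the nonirradiated HepG2 samples and 1433, 1575 and 1322 in the irradiated ones, a 6.46-fold rise (log2 fold change 2.69 ± 0.14 SE, edgeR adjusted p = 4.6e-07). In Neuro2a Mrpl54 stood at 148.4, 152.4 and 132.7 without and at 699.9, 675.3 and 647.8 with UV, 4.80-fold higher (2.26 ± 0.10, edgeR adjusted p = 1.6e-09). The groups lay far apart in both lines, and the same held in HEK293 (4.68-fold) and HippCulture (2.92-fold).

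MRPL41, another large-subunit protein of mitochondria, gave 598.6, 729.4 and 702.8 normalised counts in nonirradiated and 3980, 3822 and 3409 in irradiated HepG2, a 5.79-fold rise (log2 2.53 ± 0.10 SE, edgeR adjusted p = 2.6e-07). In HEK293 the log2 rise was 2.02 ± 0.20, but in the mouse cells it was 1.56 ± 0.13 in Neuro2a and 1.37 ± 0.11 in HippCulture, nearer to the medians of the 78. MRPL14 and MRPS24, homologues of bacterial ribosomal proteins, were the others with the largest rise in HepG2. Normalised counts of MRPL14 went from 970.6, 1356 and 1357 to 6233, 6266 and 5855, and those of MRPS24 from 773.8, 982.8 and 957.3 to 4644, 4868 and 4568. The irradiated samples of both stood far above the nonirradiated ones.

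MRPL12, part of the stalk that recruits translation factors, was among the leading mRNAs of HEK293, Neuro2a and HippCulture. In HEK293 its normalised counts were 655.2, 452.1 and 447.3 without and 2857, 1722 and 1778 with UV (log2 fold change 2.03 ± 0.23 SE, edgeR adjusted p = 1.4e-04). In HippCulture they were 129.4, 114.8 and 117.4 without and 296.9, 410.6 and 316.2 with UV (1.5 ± 0.12, edgeR adjusted p = 4.0e-09). Replicate 1 was the highest of both HEK293 groups, and the groups stayed apart. MRPL10, which anchors MRPL12 in that stalk, rose less, by 1.66 (HepG2) and 1.02 (HEK293) in the human lines and by 0.72 (Neuro2a) and 0.63 (HippCulture) in the mouse, as log2 fold changes.

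The others in the leading places were MRPL23 in HEK293 (log2 fold change 2.13 ± 0.19 SE), Mrpl14 (2.15 ± 0.11) and Mrpl52 (2.18 ± 0.11) in Neuro2a, and Mrpl52 (1.57 ± 0.12), Mrps21 (1.51 ± 0.13) and again Mrpl12 in HippCulture. Mrpl52 reached 354.4, 378.5 and 357.1 normalised counts in irradiated Neuro2a from 80.7, 82.6 and 83.7. The human MRPL52 gave an uneven picture in HEK293, where irradiated replicate 1 stood at 1461 and the other two at 598.7 and 526.5, with nonirradiated values of 349.2, 210.3 and 172.8.

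Proteins of known tasks in the ribosome were picked by role. MRPS12, which helps shape the decoding centre, rose by a log2 fold change of 2.2 in HepG2, 1.83 in HEK293, 1.93 in Neuro2a and 1.4 for the hippocampal cells. MRPL58, a release factor-like protein that also frees stalled ribosomes, rose by 2.15, 1.67, 1.88 and 1.07 in the same order. MRPL3, a homologue of a bacterial protein close to the peptidyl transferase centre, rose by 1.08 in HepG2, 0.69 in HEK293 and 0.64 in Neuro2a, the HEK293 call being lost without nonirradiated replicate 2 or 3 or irradiated replicate 1 or 2 (edgeR adjusted p from 0.052 to 0.11). In HippCulture Mrpl3 gave 262.6, 219.0 and 282.3 normalised counts without and 267.6, 297.9 and 321.3 with UV, with overlapping groups and an edgeR adjusted p of 0.077.

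The 3 proteins related to bacterial S18 could be compared with each other. MRPS18A rose by 2.1, 1.65, 1.63 and 1.36 (HepG2, HEK293, Neuro2a and HippCulture), MRPS18B by 1.69, 1.6, 1.39 and 1.01, and MRPS18C by 1.24, 1.3, 1.75 and 1.18. MRPS36, which is named as a ribosomal protein but is also known as a subunit of the α-ketoglutarate dehydrogenase complex, rose by 2.04, 1.44, 1.57 and 1.36, as the ribosomal members did.

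MRPL42 was the only mRNA of the set that fell in both human lines. In HEK293 its normalised counts were 1744, 1709 and 1568 without and 904.3, 824.3 and 601.0 with UV, a 2.16-fold loss (log2 fold change −1.11 ± 0.16 SE, edgeR adjusted p = 5.3e-04). In HepG2 they were 2128, 2798 and 2610 without and 1916, 1923 and 1715 with UV (−0.37 ± 0.10, edgeR adjusted p = 0.0088). All irradiated values lay below all nonirradiated values in both lines.

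The mouse mRNA moved the other way. Mrpl42 gave 243.4, 196.7 and 218.6 normalised counts in nonirradiated and 582.8, 438.1 and 410.8 in irradiated Neuro2a (log2 fold change 1.16 ± 0.13 SE, edgeR adjusted p = 3.2e-06). In HippCulture it gave 127.8, 123.0 and 148.0 without and 249.6, 201.3 and 226.7 with UV (0.79 ± 0.12, edgeR adjusted p = 1.1e-05). The exons over which reads were counted span 16393 bases for human MRPL42 and 3682 for mouse Mrpl42, so that the human count covers much more than the coding transcript. A share of 282 of those human bases is also counted for another gene, RN7SL737P.

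MRPS30, which carries a small-subunit name but is a protein of the large subunit, also had calls in opposite directions in a human line and in the mouse cells. In HEK293 its normalised counts were 1055, 1031 and 1099 without and 890.5, 646.3 and 676.7 with UV (log2 fold change −0.53 ± 0.14 SE, edgeR adjusted p = 0.013). That call was lost without irradiated replicate 2 (adjusted p = 0.089 by edgeR) or 3 (0.082). In HepG2 the values were 1343, 1535 and 1500 without and 1560, 1590 and 1416 with UV, overlapping groups that did not pass the test (0.13 ± 0.08, edgeR adjusted p = 0.16). In the mouse Mrps30 rose, from 386.9, 369.5 and 356.3 to 773.2, 722.4 and 783.7 normalised counts (Neuro2a) and from 119.2, 130.4 and 132.7 to 208.0, 251.2 and 211.5 (HippCulture).

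In HippCulture the calls on the other side of 0 were Mrpl1, homologue of the bacterial L1 stalk protein, and Mrps25. Mrpl1 gave 106.0, 113.2 and 107.8 normalised counts without and 85.5, 75.7 and 89.5 with UV (log2 fold change −0.35 ± 0.14 SE, edgeR adjusted p = 0.036). Mrps25 gave 515.9, 452.0 and 541.2 without and 422.8, 430.0 and 428.1 with UV (−0.22 ± 0.09, edgeR adjusted p = 0.043). Neither call was firm. Leaving out any 1 of the 6 samples lost the call on Mrpl1, with adjusted p from 0.052 to 0.11, and that on Mrps25 was lost in all but 1 of these fits, with adjusted p up to 0.37, and kept without nonirradiated replicate 2 (0.025). Of the 6576 exon bases counted for Mrps25, 4590 are also counted for Nr2c2.

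In the other cell types Mrpl1 rose. It went from 167.7, 175.7 and 173.2 to 300.2, 334.5 and 300.2 normalised counts in Neuro2a (log2 0.90 ± 0.10 SE), and human MRPL1 rose by 1.64 in HepG2 and 1.16 in HEK293. Mrps25 rose by 0.35 in Neuro2a (edgeR adjusted p = 0.014), a call that was lost without nonirradiated replicate 2 (0.079) or irradiated replicate 1 (0.078) and by DESeq2 (0.069), and MRPS25 rose by 0.57 in HepG2.

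**Figure D2:**
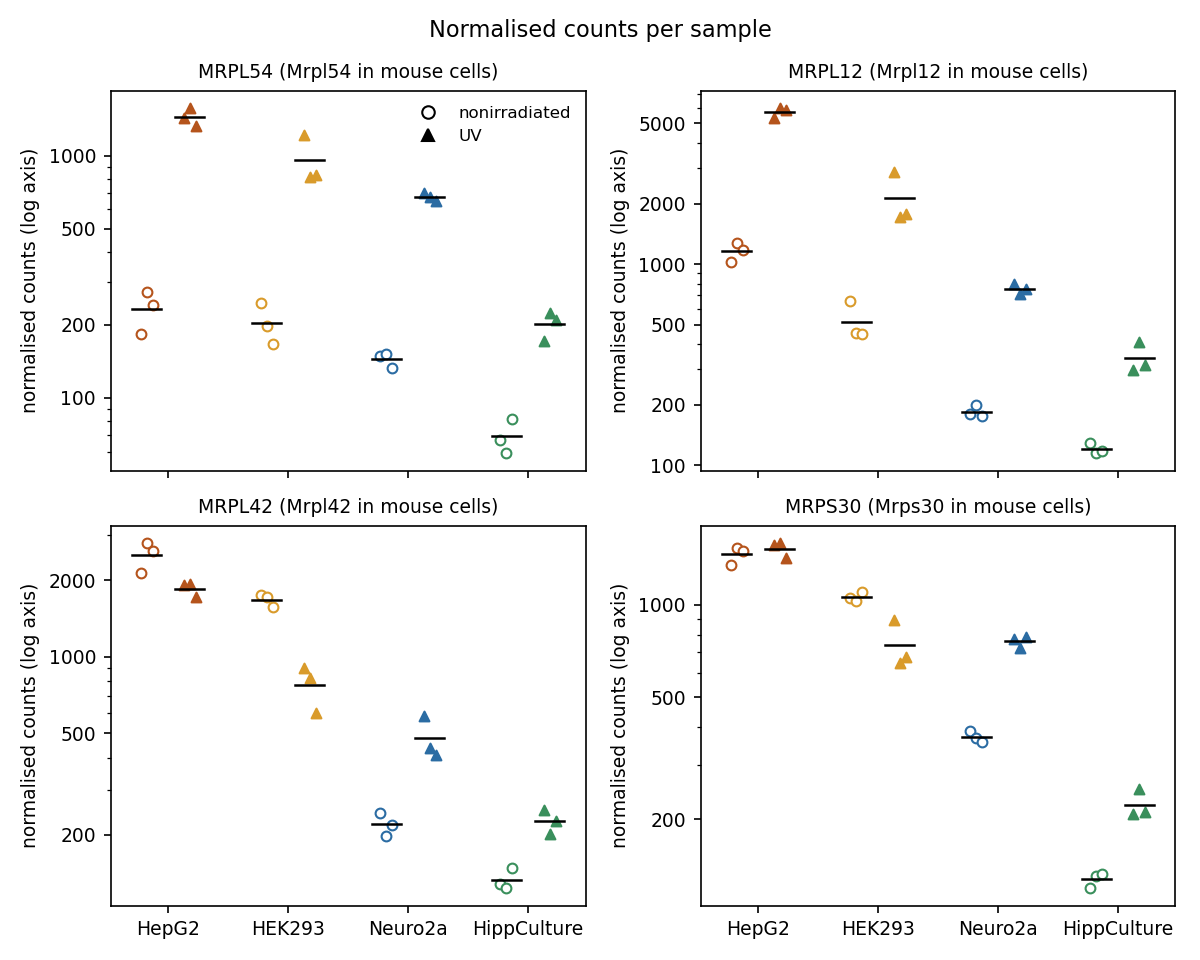
Normalised counts (log axes) in each of the 3 nonirradiated and 3 irradiated samples of each cell type for selected mRNAs, 1 point per sample with lines at the group means. MRPL54 and MRPL12 are higher with UV in every cell type, MRPL42 is lower in HepG2 (1715 to 1923 against 2128 to 2798) and HEK293 and higher in both mouse cell types, and MRPS30 is lower in HEK293 alone.

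The mRNAs that passed no test in a cell type were few and differed between cell types. MRPS30 was the 1 in HepG2. HEK293 had 9, namely MRPL19, MRPL30, MRPL35, MRPL44, MRPL50, MRPS10, MRPS16, MRPS25 and MRPS27, with log2 fold changes between 0.09 and 0.71. Same-numbered HEK293 samples deviated together, replicate 1 most clearly, while replicates 2 and 3 were hardly told apart by number. With the number as a block 75 mRNAs rose in HEK293 and 2 fell, 8 of these 9 among those that rose. With the block 32.7% of all genes rose and 35.3% fell. MRPL50 alone stayed without a call. MRPS10, for example, stood at 353.4, 153.9 and 156.3 normalised counts without and at 554.8, 302.7 and 236.7 with UV, higher with UV in each pair, with an edgeR adjusted p of 0.14 without and 6.0e-09 with the block.

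Neuro2a had 2 mRNAs without a call, Mrpl44 and Mrps2. Mrps2, homologue of a bacterial protein of the small subunit, gave 171.4, 155.9 and 168.9 normalised counts without and 212.3, 128.8 and 139.0 with UV, with irradiated samples on both sides of the nonirradiated ones. In HippCulture it gave 100.5, 71.4 and 104.5 without and 99, 93.4 and 102.7 with UV (log2 fold change 0.12 ± 0.15 SE, edgeR adjusted p = 0.54). The human MRPS2 rose by 1.8 ± 0.07 in HepG2, from 828.4, 780.3 and 826.2 to 2759, 2617 and 2708 normalised counts, and by 1.22 ± 0.17 in HEK293.

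HippCulture had 7 without a call, Mrpl3, Mrpl48, Mrpl50, Mrps2, Mrps5, Mrps9 and Mrps17. Mrpl48 lay just outside, with 411.5, 397.8 and 402.9 normalised counts without and 476.8, 431.6 and 468.7 with UV (log2 fold change 0.21 ± 0.09 SE, edgeR adjusted p = 0.05). The groups of Mrpl48 did not overlap. Those of Mrps5 (−0.12 ± 0.10), Mrps17 (−0.06 ± 0.10) and Mrps9 (0.04 ± 0.11) did.

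Among mRNAs that rose, the smallest rises with groups apart were MRPL44 (log2 0.31 ± 0.08 SE), MRPS27 (0.39 ± 0.07) and MRPS35 (0.45 ± 0.10) in HepG2. With at least 10 counts asked of every sample these values were 0.04, 0.11 and 0.18 and none passed (edgeR adjusted p = 0.65, 0.11 and 0.096), and MRPL44 did not pass with TMM over protein-coding genes either (0.12, adjusted p = 0.14). MRPL44 has a fold related to RNase III, and MRPS27 is a pentatricopeptide repeat protein that binds RNA. In HEK293 the smallest were MRPS35 (0.50 ± 0.13) and MRPS14 (0.64 ± 0.19), the latter lost without nonirradiated replicate 2 (edgeR adjusted p = 0.052) or 3 (0.068). In Neuro2a they were Mrpl50 (0.34 ± 0.12), Mrps25, Mrps10 (0.57 ± 0.12) and Mrps5 (0.61 ± 0.10). The call on Mrpl50 was lost without nonirradiated replicate 1 or 2 or irradiated replicate 1 or 3 (edgeR adjusted p from 0.061 to 0.089). In HippCulture they were Mrps10 (0.37 ± 0.13) and Mrpl19 (0.43 ± 0.12), the former lost without nonirradiated replicate 1 (0.055) or irradiated replicate 1 (0.074) or 3 (0.081).

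Levels before irradiation were compared per length, as RPKM, the reads per kilobase of exon scaled to the library total. The median of the 78 mRNAs was 12.1 RPKM in HepG2 (1.24 to 44) and 17.7 RPKM in HEK293 (4.42 to 139.7). The mouse cells had medians of 13.1 RPKM (Neuro2a, 3.59 to 40.9) and 7.77 RPKM (HippCulture, 1.81 to 23.7). The highest levels were those of MRPL14 (44 ± 8.29 RPKM, SD, n = 3), MRPS26 (39.6 ± 5.20) and MRPL12 (38.7 ± 4.46) in HepG2, which lie within each other's spread. In HEK293, MRPS34 (139.7 ± 11.6 RPKM) stood above MRPS26 (72.4 ± 2.09) and MRPL51 (66.1 ± 6.98).

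In Neuro2a the highest were Mrpl34 (40.9 ± 2.35 RPKM), Mrpl28 (40.8 ± 5.70) and Mrpl10 (37.4 ± 3.03), and in HippCulture Mrpl41 (23.7 ± 2.46 RPKM), Mrps6 (23.0 ± 3.14) and Mrpl28 (21 ± 2.48), again within each other's spread. All of these abundant mRNAs rose with UV. Across the 78 mRNAs, Spearman's ρ between the RPKM without UV and the log2 fold change was 0.08 and 0.28 in the human lines (HepG2 first) and 0.37 and 0.51 in the mouse cells (Neuro2a first), as a description, since both values use the same nonirradiated samples.

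The large-subunit and small-subunit sets had close medians. By name, 48 of 49 large-subunit and 28 of 29 small-subunit mRNAs rose in HepG2, with median log2 fold changes of 1.74 and 1.56. HEK293 had 1.49 and 1.28, Neuro2a 1.56 and 1.57, and HippCulture 1.08 and 1.03. The 46 mRNAs listed as homologues of bacterial ribosomal proteins had medians of 1.76, 1.39, 1.63 and 1.1 in HepG2, HEK293, Neuro2a and HippCulture, and the other 32, MRPS18A and MRPS18B among them, had 1.68, 1.38, 1.4 and 1.03. In HepG2 all 46 of the former and 30 of the latter rose.

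Many of these genes lie close to neighbours, and a read on exons of several genes was counted for each. In the human annotation 40 of the 78 share at least 1 exon base with another gene, and in the mouse 32. Among the others, 37 of 38 rose in HepG2 and 34 of 38 in HEK293, 45 of 46 rose in Neuro2a and 40 of 46 in HippCulture, and their medians were 1.83, 1.48, 1.52 and 1.06.

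The UV effect was set side by side between the cell types of each species and tested as an interaction term. The log2 fold change was larger in HepG2 than in HEK293 for 71 of 78 mRNAs in the separate fits. In the joint fit of the interaction the difference was above 0 for 64 of them, with a median of 0.23. Of the 16759 genes tested in that fit, 9752 were above 0, with a median of 0.09. The difference itself passed the test for 2, MRPL50 and MRPS30, against 3.1% of all genes with a larger effect in HepG2 and 4.85% with a smaller one (3.6% and 4.69% of protein-coding genes). MRPL50 went from 1454, 2137 and 1905 to 3479, 3665 and 3573 normalised counts in HepG2 and from 300.1, 253.8 and 293.9 to 386.2, 282.3 and 236.7 in HEK293, a difference of 0.85 ± 0.22 SE in log2 fold change (edgeR adjusted p = 0.034). The difference of MRPS30 was 0.56 ± 0.16 (edgeR adjusted p = 0.048).

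MRPL42 (0.64 ± 0.19, edgeR adjusted p = 0.062) and MRPL55 (0.47 ± 0.15, 0.067) came next, and both passed when blocked by replicate number (0.007 and 0.015). Both also passed by the DESeq2 test (adjusted p = 0.031 and 0.023) and without irradiated HEK293 replicate 1 (edgeR adjusted p = 0.025 and 0.031). The count of 2 was not stable. It was 15 without irradiated HEK293 replicate 1 and 0 or 1 without any other 1 of the 12 samples. Blocked by replicate number it was 18, of which 17 were larger in HepG2, where 12.5% of all genes were larger and 8.61% smaller. With library sizes alone it was 6, and 0 of these were larger in HepG2, where 0.716% of all genes were larger and 17.5% smaller. The cell lines, the sequencer models and the featureCounts versions (1.5.3 for HepG2, 1.6.1 for HEK293) cannot be told apart in this comparison.

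Between the mouse cell types the difference was wider. The log2 fold change was larger in Neuro2a than in HippCulture for 75 of 78 mRNAs, and the interaction passed the test for 43 with a larger effect in Neuro2a and 1 with a smaller effect, against 8.39% and 16.1% of all genes (9.31% and 17.8% of protein-coding genes). The median difference was 0.51, where that of all genes was −0.14, with 6199 of the 14973 genes tested above 0. With library sizes alone the median difference turned below 0, at −0.13 beside −0.77 for all genes. On that scale 8 mRNAs differed, 2 of them with the larger effect in Neuro2a. Of all genes 0.427% had a larger and 50.2% a smaller effect in Neuro2a there. The astrocyte markers at 570.2 to 665.5 CPM in HippCulture summed to at most 1.22 CPM in Neuro2a, and their part in the difference was not tested.

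Mrpl48 and Mrpl1 led this comparison. Mrpl48, a large-subunit protein, went from 274.5, 242.0 and 281.8 to 639.9, 689.4 and 717.3 normalised counts in Neuro2a, beside its log2 fold change of 0.21 in HippCulture, a difference of 1.19 ± 0.13 SE in log2 fold change (edgeR adjusted p = 6.2e-06). Mrpl1 differed by 1.24 ± 0.16 (2.4e-05 by edgeR), Mrpl35 by 0.89 ± 0.15 (2.8e-04) and Mrpl58 by 0.81 ± 0.14 (3.7e-04). Mrpl44 went against the rest. It gave 168.9, 165.8 and 166.8 normalised counts without and 174.3, 179.0 and 197.5 with UV in Neuro2a, and 64.7, 67.3 and 70.0 without and 100.1, 120.8 and 141.3 with UV in HippCulture, a difference of −0.69 ± 0.18 (edgeR adjusted p = 0.0090).

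**Figure D3:**
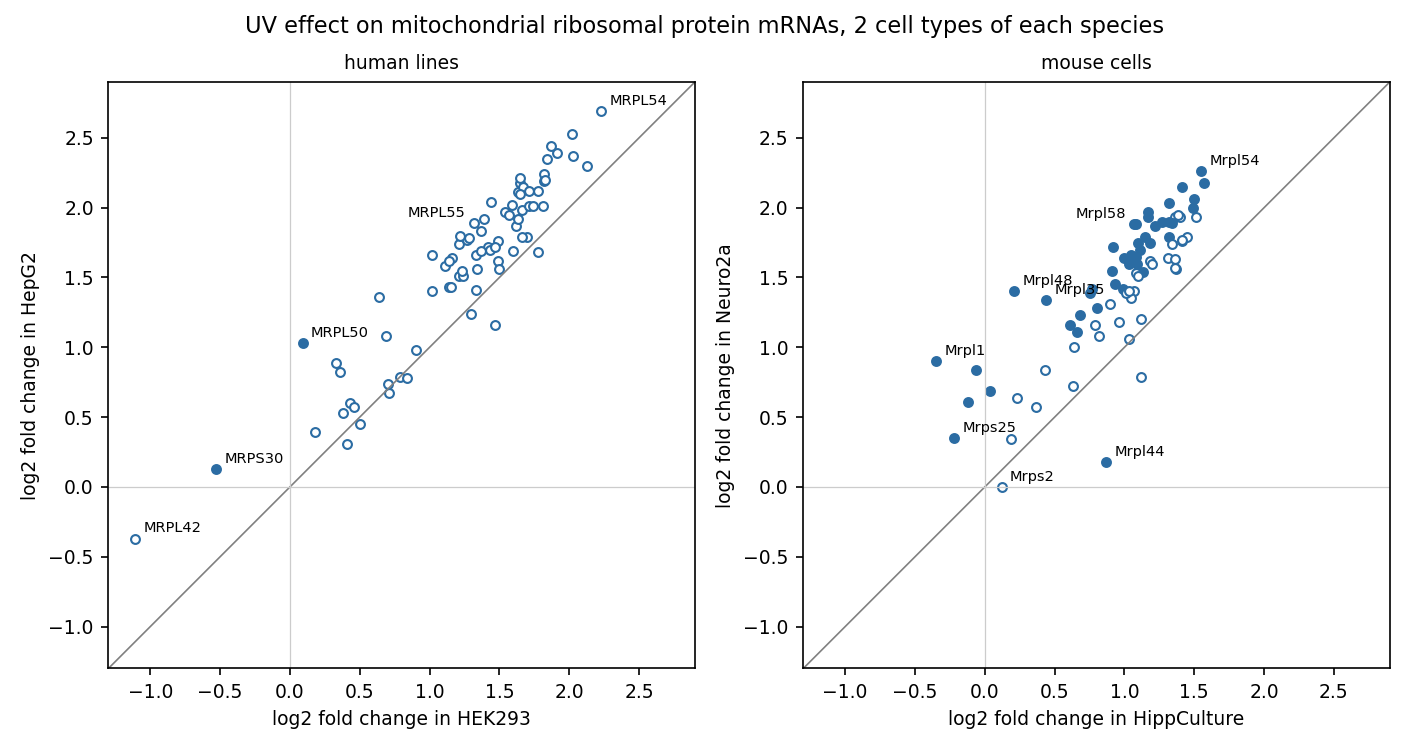
Log2 fold changes (UV over nonirradiated) of the 78 mitochondrial ribosomal protein mRNAs in HepG2 against HEK293 and in Neuro2a against HippCulture, with the line of equal effect. Filled points passed the interaction test, 2 in the human lines and 44 in the mouse cells; most points lie above the line, 71 and 75 of 78.

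The order of the mRNAs was more alike within a species than between species. Spearman's ρ of the log2 fold changes across the 78 mRNAs was 0.91 between HepG2 and HEK293 and 0.85 between Neuro2a and HippCulture. Between a human and a mouse cell type it was 0.54 to 0.68. These are descriptions across genes, which share libraries and are not independent replicates.

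The mRNAs that differed most between HepG2 and Neuro2a were MRPS2, higher by 1.8 in HepG2, MRPL41 (0.98) and MRPL10 (0.94) on that side, and MRPL42 (−1.54), MRPS16 (−1.29), MRPL30 (−1.26) and MRPS30 (−0.95) on the other. Human MRPS16 went from 2082, 2449 and 2527 to 3477, 3376 and 3321 normalised counts in HepG2, and mouse Mrps16 from 82.6, 72.7 and 75.2 to 268.0, 259.1 and 298.6 in Neuro2a. Human MRPL30 rose by 0.53 in HepG2, while Mrpl30 rose by 1.79 in Neuro2a and 1.32 in HippCulture. These differences between species were not tested. They were chosen after their values were seen, and cell type, annotation and counting differ with the species.

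**Figure D4:**
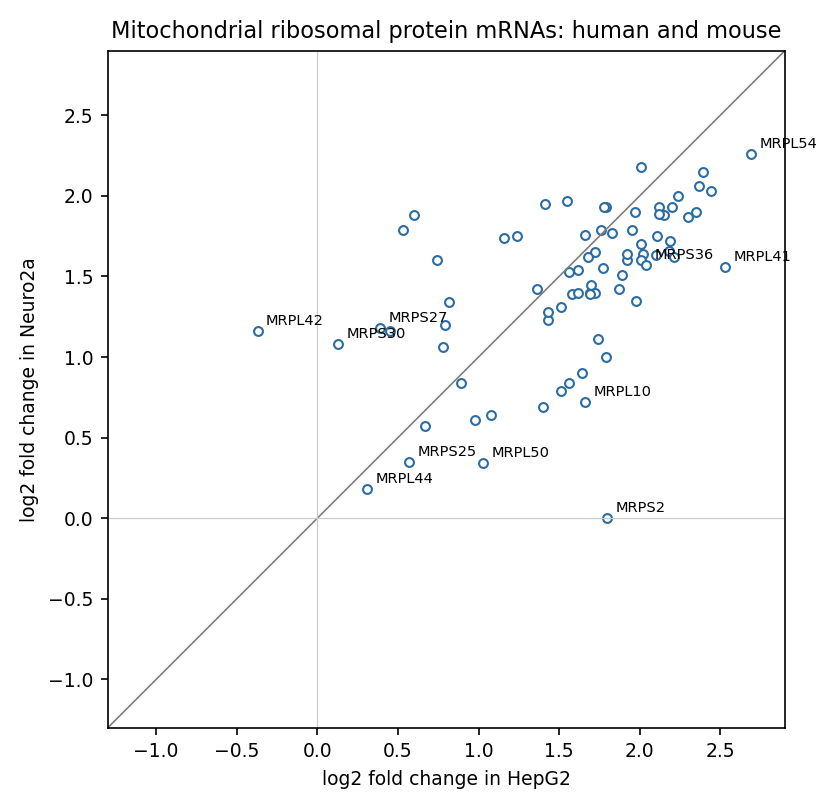
Log2 fold change (UV over nonirradiated) of each mitochondrial ribosomal protein mRNA in HepG2 (x axis) and of its mouse counterpart in Neuro2a (y axis), with the line of equal effect. MRPL54 lies at the upper end of both axes (2.69 and 2.26), MRPS2 is high in HepG2 and at 0 in Neuro2a, and MRPL42 is below 0 in HepG2 and at 1.16 in Neuro2a.

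Compared with protein-coding genes in general, these mRNAs are short. The transcript with the longest coding region had a median length of 1334.5 bases for the 78 human mRNAs and 2860 for protein-coding genes, and of 1302 and 2556.5 in the mouse. The coding region had a median of 594 bases in human and 585 in mouse, the 3′ UTR of 418.5 and 323.5 bases. The uridine share of the coding region, with medians of 21.8% in human and 20.8% in mouse, was close to that of protein-coding genes (21.7% and 22.2%).

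Within the set, the log2 fold change went down as the uridine share went up. Spearman's ρ between the uridine share of the coding region and the log2 fold change was −0.65 and −0.59 in the human lines (HepG2 first) and −0.51 in both mouse cell types across 78 mRNAs, and −0.28, −0.29, −0.22 and −0.25 across protein-coding genes. Split into 3 groups of 26 mRNAs, those with the lowest uridine share (11.3% to 19.6%) had a median of 2.06 in HepG2, the middle ones 1.67 and those with the highest (23.5% to 28.3%) 1.42. HEK293 had 1.66, 1.28 and 1.16 in the same order. Neuro2a had 1.79, 1.37 and 1.39, and HippCulture had 1.32, 0.97 and 0.98, so that in the mouse cells the middle and highest groups lay close together.

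Length went with the effect as well. Spearman's ρ between the exon length and the log2 fold change was −0.47, −0.46, −0.5 and −0.65 in HepG2, HEK293, Neuro2a and HippCulture, near the values of −0.48, −0.51, −0.53 and −0.51 across protein-coding genes. For the length of the 3′ UTR it was −0.3, −0.4, −0.39 and −0.53, beside −0.46, −0.48, −0.44 and −0.46 across protein-coding genes. Mrpl1 has 2390 bases of 3′ UTR in the mouse and 178 in human, and rose less in the mouse cells or fell. MRPS30 went the other way, with 1972 bases in the mouse, 312 in human and the larger rise in the mouse. These 3′ UTRs are those of 1 transcript per gene from GENCODE 44 or M21. The reads were counted on exons of releases 28 and M17. Those exons span 1943 bases for human MRPL1 and 4295 for Mrpl1, and 6202 for human MRPS30 and 6666 for Mrps30. For human MRPL30 the UTR (3856 bases) exceeds the counted exons (2898). Across the 78 pairs, ρ between the log2 human/mouse ratio of 3′ UTR length and the difference in log2 fold change was −0.27 to −0.4. The human uridine shares and the mouse ones correlated at ρ = 0.76 across the 78 pairs. All of these relations are descriptions across genes, whose uridine share, length and base composition vary together.

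**Figure D5:**
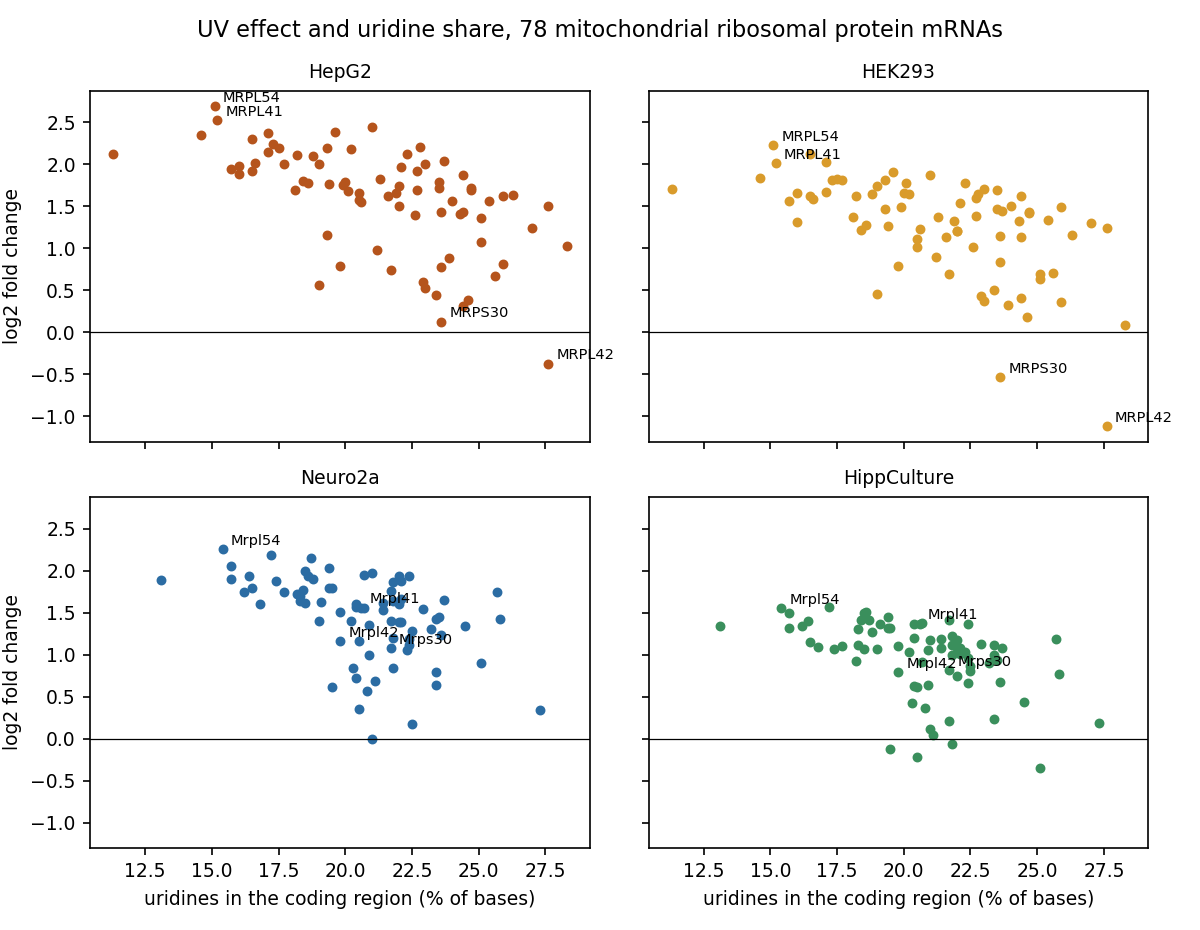
Log2 fold change (UV over nonirradiated) against the uridine share of the coding region (percent of bases) for the 78 mitochondrial ribosomal protein mRNAs, 1 panel per cell type and 1 point per mRNA. In the human lines MRPL54 and MRPL41 lie at the left (15.1% and 15.2%) and top, and MRPL42 (27.6%) lies at the right and bottom. MRPL39, not labelled, has 27.6% as well and lies at 1.51 in HepG2.

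Subunits of the same ribosome that carry other names were set beside the 78. AURKAIP1, CHCHD1 and GADD45GIP1 rose in all 4 cell types, with AURKAIP1 at 2.56, 1.91, 2.03 and 1.37 (HepG2, HEK293, Neuro2a and HippCulture). DAP3, a GTP-binding protein of the small subunit, rose by 1.18, 0.83, 1.11 and 0.71. PTCD3, a pentatricopeptide repeat protein of the small subunit, passed the test in none of them. Its normalised counts were 4066, 4981 and 4857 without and 4583, 4477 and 4661 with UV in HepG2, with overlapping groups (log2 fold change 0.05 ± 0.08 SE, edgeR adjusted p = 0.6).

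The nuclear mRNAs of the factors that build and serve the mitochondrial ribosome had medians nearer to 0. Of 21 mRNAs of mitoribosome assembly factors, 19 rose and 2 fell in HepG2 (median 0.98) and 14 rose and 2 fell in HEK293 (0.73). Of the 21 in the mouse 15 rose and 1 fell (Neuro2a, 0.86), and 13 rose and 1 fell (HippCulture, 0.45). Of 17 mRNAs of mitochondrial aminoacyl-tRNA synthetases, 15, 9, 11 and 10 rose and 2, 1, 1 and 1 fell in the same order, with medians of 0.57, 0.48, 0.47 and 0.37. Of the 12 human mRNAs of mitochondrial translation factors 7 rose and 2 fell in HepG2, and 7 rose and 1 fell in HEK293. Of the 11 mouse ones 8 rose and 1 fell in Neuro2a, and 6 rose and 1 fell in HippCulture, and the medians were 0.53, 0.48, 0.75 and 0.39. As a share, 58.3%, 58.3%, 72.7% and 54.5% of the translation factors rose, beside 45.9%, 27.9%, 33.3% and 30.9% of protein-coding genes.

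A further pair of sets, the cytosolic ribosome and the respiratory chain, was read in the same fits. Cytosolic ribosomal protein mRNAs all rose, 80 of 80 tested in HepG2 and 79 of 79 in each of the others, with medians of 2.48, 1.88, 2.07 and 1.46. Nuclear-encoded subunits of the respiratory chain, partners of the proteins that the mitochondrial ribosome makes, had medians of 2.06, 1.65, 1.85 and 1.36, and 77 of 81 tested rose in HepG2, 76 of 79 in HEK293, 80 of 81 for Neuro2a and 78 of 80 for HippCulture. The interaction between the mouse cell types passed with a larger effect in Neuro2a for 73 of 79 cytosolic ribosomal protein mRNAs and for 56 of 78 respiratory chain mRNAs. No set was tested against another.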

How the data were processed

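Aqueous-phase RNA of 24 samples was analysed from the raw counts per gene that the authors deposited. They mapped reads with TopHat2 2.1.1 to hg38 or mm10 and counted them on GENCODE exons with featureCounts. A read on several genes was counted for each, and no strand option was named in the file headers. Depth was 6910907 to 53511592 counts a sample, and the low counts of single genes in HippCulture (from 25) limit precision there.

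Symbols and classes came from GENCODE 44 and M21 (98.93% and 99.82% of genes matched). Genes with a mean of at least 0.5 CPM in nonirradiated samples were tested with edgeR 4.0.16 in R 4.3.3 (quasi-likelihood test, TMM, Benjamini-Hochberg adjustment over all genes tested, threshold 0.05). The SE is the log2 fold change over the square root of F. Interactions came from 1 fit per species, so that they can differ slightly from the difference between the separate fits. Normalised counts used the size factors of DESeq2 1.42.0. Exact permutation tests of 3 against 3 cannot go below 0.1. Other steps used Python 3.11.15, pandas 2.3.3 and matplotlib 3.10.9. The fits were also run on simulated counts in which few genes changed, as many up as down. Those counts have no broad shift in composition, so that they do not test the scaling.

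Same-numbered HEK293 samples deviated together (correlations of 0.54, 0.27 and 0.35), so that blocked values are given there. Replicates 2 and 3 also correlated across numbers (0.21 for nonirradiated 2 with irradiated 3, and 0.2 for 3 with 2). The numbers thus mainly set replicate 1 apart. The pairing comes from the data alone.

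The genes, lists and tests were chosen with earlier results of these data known. Named are, per cell type, the 4 called mRNAs at each end of the range with groups apart and the 3 with the highest RPKM, per species the 4 with the smallest interaction p, those called in opposite directions, and fixed genes by role. MRPS2, MRPS16, MRPL30 and the uncalled mRNAs were added after their values were seen. Alternatives were other size factors, library sizes alone, TMM over protein-coding genes, DESeq2 as the test, other filters, the replicate block, genes sharing no exon base, the 5 subunits with other names added, and leaving out each sample.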

Additional observations from a re-analysis of the deposited data

Results flagged for a closer look

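The effect of UV differed between the cell types of a species by the interaction test for 2 human and 44 mouse mitochondrial ribosomal protein mRNAs, of 78 each. Of all genes, 3.1% had a larger and 4.85% a smaller effect in HepG2, so that the human count is no larger than the background, and it was 0 or 1 without any 1 of the samples other than irradiated HEK293 replicate 1. In the mouse 8.39% of all genes had a larger and 16.1% a smaller effect in Neuro2a. In human these were MRPL50, with a log2 fold change larger by 0.85 in HepG2 than in HEK293, and MRPS30, larger by 0.56. In the mouse the leading ones were Mrpl48 (larger by 1.19 in Neuro2a than in HippCulture), Mrpl1 (1.24), Mrpl35 (0.89) and Mrpl58 (0.81).

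Calls in opposite directions in a human and a mouse cell type were found for 4 mRNAs, MRPS30 and Mrpl1 among them again, and these differences between species were not tested. MRPL42 stood at −0.37 in HepG2 and −1.11 in HEK293 against 1.16 in Neuro2a and 0.79 in HippCulture. MRPS30 stood at −0.53 in HEK293 against 1.08 in Neuro2a and 0.82 in HippCulture. MRPL1 stood at −0.35 in HippCulture against 1.64 in HepG2 and 1.16 in HEK293, and MRPS25 at −0.22 in HippCulture against 0.57 in HepG2. Mrpl1 and Mrps25 were also called in opposite directions within the mouse, and there the difference passed the interaction test (Mrpl1 as above, Mrps25 larger by 0.57 in Neuro2a, edgeR adjusted p = 0.0077). With 3 samples a group, no search for single outlying samples was made.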

How the results depend on the processing

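Scaling to library sizes moved the most results, since it shifts the median of all genes by the amounts given with the result. Under it the mRNAs that rose and fell numbered 47 and 15 (HepG2, median 0.4), 53 and 5 (HEK293, 0.6), 46 and 12 (Neuro2a, 0.37) and 50 and 5 (HippCulture, 0.53). Interactions numbered 6 in human (median −0.2), where 0.716% of all genes had a larger and 17.5% a smaller effect in HepG2. They numbered 8 in mouse (−0.13), where 0.427% of all genes had a larger and 50.2% a smaller effect in Neuro2a. Changes of side were listed only for mRNAs picked by the naming rules and for the subunits with other names. A call before or under library sizes alone was also required. Other mRNAs are left out, so the lists do not cover every mRNA that changed side. With these limits, the following turned to the other side of 0 under library sizes alone. In HepG2 these were DAP3 (−0.12), MRPL19 (−0.42), MRPL3 (−0.22), MRPL35 (−0.49), MRPL44 (−1.0), MRPL50 (−0.28), MRPS10 (−0.63), MRPS18C (−0.07), MRPS25 (−0.74), MRPS27 (−0.92), MRPS30 (−1.18), MRPS35 (−0.86), MRPS5 (−0.33), MRPS6 (−0.56) and PTCD3 (−1.26). In HEK293 these were MRPL3 (−0.09), MRPL50 (−0.69), MRPS14 (−0.13), MRPS27 (−0.58), MRPS35 (−0.26) and MRPS6 (−0.09). In Neuro2a these were Dap3 (−0.09), Mrpl1 (−0.3), Mrpl10 (−0.47), Mrpl19 (−0.36), Mrpl3 (−0.55), Mrpl42 (−0.02), Mrpl44 (−1.02), Mrpl50 (−0.85), Mrps10 (−0.62), Mrps25 (−0.84), Mrps27 (−0.01), Mrps30 (−0.12), Mrps35 (−0.03), Mrps5 (−0.59) and Ptcd3 (−1.08). In HippCulture these were Mrpl19 (−0.12), Mrpl35 (−0.1) and Mrps10 (−0.17). PTCD3 in HepG2 also turned with at least 10 counts in every sample (−0.22) and without nonirradiated replicate 1 (range −0.1 to 0.08 over the samples left out).

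The median in HepG2 was 1.53 with TMM over protein-coding genes. With at least 10 counts in every sample it was 1.44 in HepG2, 1.43 in Neuro2a and 0.99 in HippCulture, and with every gene of at least 1 count it was 1.48 in Neuro2a. DESeq2 as the test called 0 lower in HippCulture. Human interactions numbered 1 with DESeq2's size factors, 1 with TMM over protein-coding genes, 5 by the DESeq2 test, 1 with every gene of at least 1 count, 0 with at least 10 counts in every sample (edgeR) and 18 with the replicate block. By the DESeq2 test 5.36% of all genes had a larger and 6.65% a smaller effect in HepG2, and with the block 12.5% and 8.61%. Mouse interactions numbered 26 with every gene of at least 1 count, where 1.96% of all genes had a larger and 6.83% a smaller effect in Neuro2a. Among mRNAs sharing no exon base, 37 rose and 0 fell in HepG2, 34 rose and 1 fell in HEK293, 45 rose in Neuro2a, 40 rose and 1 fell in HippCulture, and 24 differed between the mouse cell types, because fewer were counted. Calls on mRNAs picked by the naming rules, on the UV effect or the interaction, were lost as well. At least 10 counts in every sample lost 10 and TMM over protein-coding genes 4. DESeq2 as the test lost 5, every gene of at least 1 count 4 and DESeq2's size factors 2. The MRPS30 interaction is among these in each fit except DESeq2 as the test, and that of MRPL50 with at least 10 counts. PTCD3 in HepG2, without a call before, turned to the other side of 0 with at least 10 counts. MRPS6 in HEK293 was lost with DESeq2's size factors (edgeR adjusted p = 0.056), TMM over protein-coding genes (0.058) and at least 10 counts (0.089). Mrps10 in HippCulture was lost with TMM over protein-coding genes (0.055), by DESeq2 (0.097) and under both filters (0.065 and 0.068). In Neuro2a, Mrpl50 (0.13 by DESeq2, 0.2 and 0.13 under the filters) and Mrps25 (0.069, 0.062 and 0.098) were lost too. The other causes were not tested.

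Leaving out 1 sample gave 76 to 76 higher in HepG2, 64 to 72 in HEK293, 74 to 76 in Neuro2a and 68 to 70 in HippCulture, with 1 to 1, 1 to 2, 0 to 0 and 0 to 1 lower. The medians were 1.57 to 1.74, 1.23 to 1.54, 1.51 to 1.58 and 1.04 to 1.14, and the interactions 0 to 15 in human and 35 to 48 in mouse. In HEK293 the calls on MRPL3 and MRPS6 were lost without nonirradiated replicate 2 or 3 or irradiated replicate 1, that on MRPL3 also without irradiated replicate 2 and that on MRPS6 also without irradiated replicate 3. The replicate block left 77 calls in HepG2 and 76 in Neuro2a, and 73 for 71 in HippCulture (Mrpl3 and Mrpl48 gained). None of these cell types had all same-number correlations above 0.1, the mark used for pairing (−0.01 to 0.05, 0.07 to 0.19 and 0.04 to 0.12). In Neuro2a every sample still correlated best with its own number, and in HippCulture each did so or tied. Mouse interactions numbered 58 with the block, where 12.4% of all genes had a larger and 20.3% a smaller effect in Neuro2a. Ptcd3 passed in HippCulture with the block (0.048 by edgeR). Some named mRNAs had an interaction that passed with the block and not in the fit without it. In human these were MRPL10, MRPL19, MRPL42, MRPL55, MRPS14, MRPS24, MRPS34, MRPS36 and MRPS2. In mouse they were Mrpl3, Mrpl19, Mrpl42, Mrps6, Mrps12, Mrps18b and Mrps21. MRPL42 and MRPL55 also passed in other fits, as given with the result.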
